A study of Homo sapiens with 15 samples.

Results

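The genes described here are 5 keratins, KRT7, KRT8, KRT80, KRT18 and KRT19, chosen by name as keratins of simple epithelia together with KRT80. They are 5 of the 60649 genes counted in each library. The study used HSC5, an established line of human skin squamous cell carcinoma, to ask what the PRMT5 and WDR77 complex does in these cells. RNA was sequenced in bulk from 15 libraries in 5 conditions of 3 replicates each.

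The sgNeg libraries are labelled with the genotype WT. The sgPRMT5-1 and sgPRMT5-2 libraries are labelled PRMT5 Knockout, and the sgWDR77-1 and sgWDR77-2 libraries WDR77 Knockout. Every library, sgNeg included, carries the treatment label Neomycin. The paper's methods describe viral delivery of the sgRNAs and, under the MTT assays, selection with G418, a drug of that class. Their section on RNA-seq names no selection, and the series text calls the genes knocked down. Each replicate is labelled as biological, and the paper describes its quantitative data as coming from 3 biologically independent experiments. Neither names separate infections or cultures for these libraries, so the p-values below measure the spread between libraries. The libraries held 5146711 to 6730428 reads assigned to genes. The median was 5806938 reads for sgNeg. It was 5974844 and 6124306 reads for sgPRMT5-1 and sgPRMT5-2, and 5203698 and 5527881 reads for sgWDR77-1 and sgWDR77-2.

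Keratins build intermediate filaments as pairs of a type I and a type II protein, and a keratin without a partner is usually degraded. KRT8 with KRT18 is the founding pair of simple, single-layered epithelia, KRT7 and KRT19 join it in ducts and glands, and stratified squamous cells rely instead on pairs such as KRT5 with KRT14. KRT80 is a type II keratin found more widely, near desmosomes and cell margins. Squamous carcinomas often express simple keratins beside squamous ones.

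Some libraries stood apart before any comparison was made. Replicates of 1 group were compared by a chi-square of their counts per degree of freedom, which is near 1 when only counting noise separates them. It ranged from 1.55 to 17.7, and the highest values, 12.5 and 17.7, both involved replicate 1 of sgWDR77-1. In sgNeg, replicate 2 had 7.16% of its reads assigned to no annotated feature, the highest share of the 15 libraries, against a lowest of 2.75%. Replicates 2 and 3 of sgWDR77-1 came next, at 6.04% and 5.70%, while its replicate 1 was at 3.57%, so these values do not say which side of that split is the unusual one. The keratin changes, the ratios and the calls of other named genes are therefore also given without sgNeg replicate 2 and sgWDR77-1 replicate 1 where that made a difference.

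Of the cell type lists compared, that of squamous markers had the highest sum, though none of these lists stands for simple epithelium. Levels are given as CPM, counts per 1000000 reads on genes after scaling by the trimmed mean of M values (TMM). The 8 squamous markers summed to 2380 to 3390 CPM in a library, with KRT17 the most abundant of them in most libraries, but KRT14 had only 1 to 4 reads. Of 7 fibroblast markers, COL1A1 was the most abundant and COL1A2 was at 0, with a sum of 6.68 to 16.2 CPM. The 4 leukocyte markers summed to at most 0.555 CPM, with CD3E at 0. The 4 melanocyte markers summed to 2.55 to 7.48 CPM, led by PMEL in most libraries, with TYR and DCT at 0. The 4 endothelial markers summed to 12.7 to 36.1 CPM, nearly all of it CDH5, and the 5 mesothelial markers to 15.02 to 28.8 CPM, led by WT1 except in the 3 sgWDR77-1 libraries, where CALB2 led. CALB2, looked at after its values were seen, averaged 12.9 CPM there against 6.59 CPM in sgNeg, with no overlap (log2 fold change 0.97, limma voom adjusted p = 0.0775). Of the other mesothelial markers, MSLN was at −1.33 there, UPK3B at −1.05, WT1 at −0.01 and LRRN4 at 0.55, none passing. The endothelial sum was highest in sgWDR77-1, where CDH5 rose (log2 fold change 0.83, limma voom adjusted p = 0.0271). That call was lost in 4 of 6 fits without 1 library, among them the fit without sgNeg replicate 2 (0.64). VWF, the other endothelial marker tested, was lower in sgWDR77-1 with no overlap, without passing (−0.43, limma voom adjusted p = 0.567). What these genes have to do with the keratin results was not tested.

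The targeted genes were lower under their own sgRNAs. PRMT5, an arginine methyltransferase, stood at 59.1, 49.6 and 67.8 CPM in sgNeg, at 33.0, 35.8 and 41.4 CPM with sgPRMT5-1 and at 44.2, 44.5 and 39.4 CPM with sgPRMT5-2. WDR77, its partner subunit, stood at 125, 114 and 119 CPM in sgNeg, at 30.8, 52.0 and 53.3 CPM with sgWDR77-1 and at 26.6, 24.9 and 22.0 CPM with sgWDR77-2. No library with the matching sgRNA overlapped the sgNeg libraries, although transcript of each target remained. In limma voom PRMT5 fell with sgPRMT5-1 (log2 fold change −0.69, adjusted p = 0.00525) and with sgPRMT5-2 (−0.45, adjusted p = 0.00257). WDR77 fell with sgWDR77-1 (−1.40, adjusted p = 0.00141) and with sgWDR77-2 (−2.29, adjusted p = 1.78e-08). Since cutting can disable a protein without removing its RNA, these levels check the labels and not the amount of protein.

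In the control cells the 5 keratins were far from equally abundant. Divided by transcript length, KRT8 led all 55 keratins that have a length, at 659 CPM per kb ± 55.9 (SD, n = 3) in sgNeg. KRT18 came next at 593 CPM per kb ± 53.7, and KRT19, after the squamous keratin KRT17, ranked 4 at 421 CPM per kb ± 29.1. KRT80 ranked 7, at 40.3 CPM per kb ± 5.01, and KRT7 ranked 10, at 11.3 CPM per kb ± 2.73. Together the 5 made up 62.0% to 66.3% of all keratin transcripts per kb in the sgNeg libraries. The other listed simple keratins, KRT20, KRT23 and KRT222, had 0 reads in each of the 15 libraries.

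The question for each sgRNA is how its libraries compare with sgNeg, and all 4 of those comparisons share the same 3 sgNeg libraries. A gene is said to rise or fall where limma voom gives an adjusted p under 0.05 over all genes tested. All 5 keratins passed the filter on low counts in every comparison. In bulk RNA, fewer cells making a transcript and less of it per cell cannot be told apart, which holds for each result below.

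**Figure D1:**
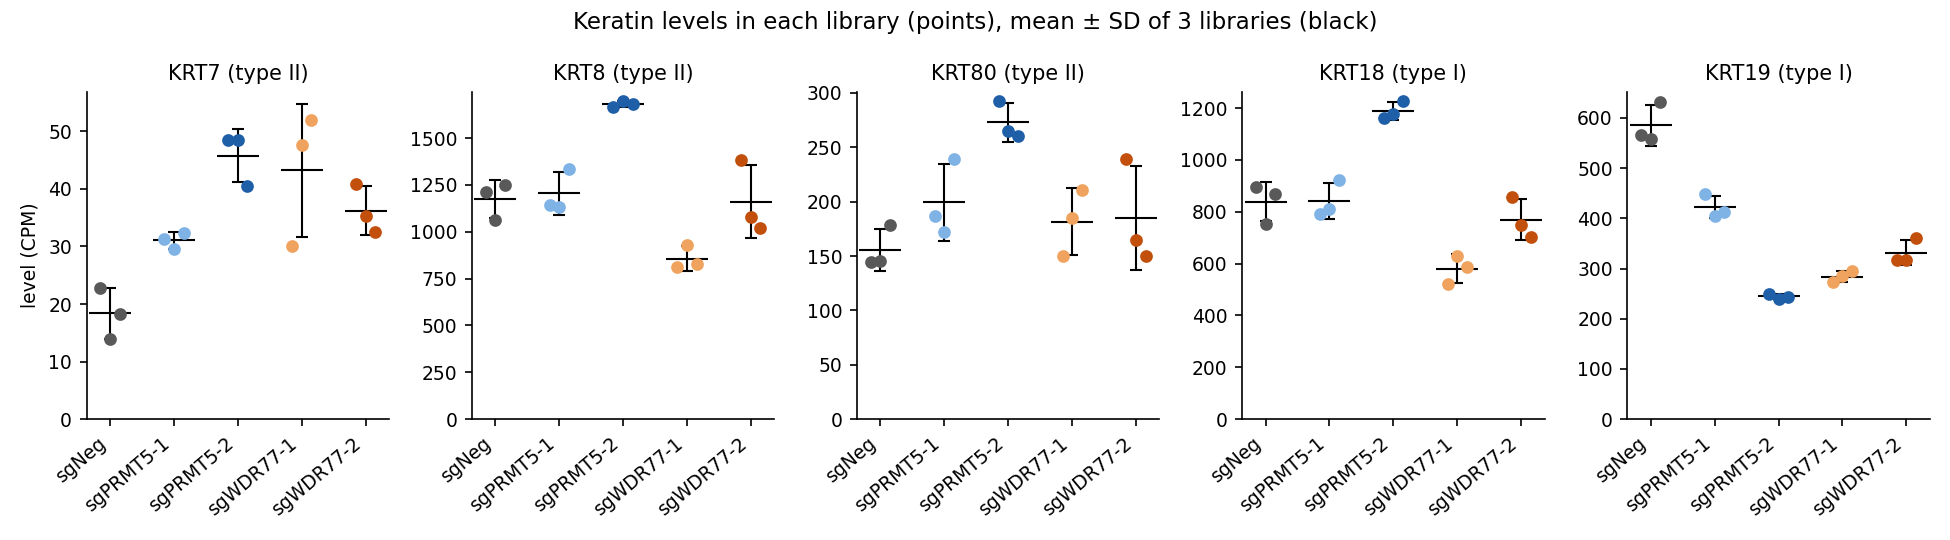
Level of each keratin in CPM (vertical axes, each starting at 0) in the 15 libraries by condition. Points are libraries and black marks the mean ± SD of 3. KRT7 is lowest and KRT19 highest in sgNeg, whereas KRT8, KRT18 and KRT80 are highest with sgPRMT5-2.

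KRT7 (ENSG00000135480.16) is a type II keratin of ducts and glands, encoded on the plus strand of chromosome 12 (hg38, chr12:52232520-52252186) in 9 exons. It had 85 to 312 reads in a library. Its level was 22.9, 14.0 and 18.3 CPM in sgNeg, 31.3, 29.5 and 32.4 CPM with sgPRMT5-1 and 48.5, 48.4 and 40.4 CPM with sgPRMT5-2. With sgWDR77-1 it was 30.1, 47.6 and 52.0 CPM, and with sgWDR77-2 it was 40.8, 35.3 and 32.6 CPM. Each of the 12 libraries with a targeting sgRNA lay above each sgNeg library, and replicate 1 of sgWDR77-1 lay well below its other replicates. From high to low, the group means were 45.8 CPM ± 4.64 (SD, n = 3) with sgPRMT5-2, 43.2 ± 11.6 with sgWDR77-1, 36.2 ± 4.19 with sgWDR77-2, 31.1 ± 1.43 with sgPRMT5-1 and 18.4 ± 4.44 in sgNeg. The gap from sgPRMT5-2 to sgWDR77-1 and the gap from there to sgWDR77-2 were within the pooled spread of their neighbours, and the others exceeded it.

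KRT7 rose with each of the 4 sgRNAs. In limma voom its log2 fold change was 0.77 with sgPRMT5-1 (standard error 0.157, adjusted p = 0.0091) and 1.34 with sgPRMT5-2 (standard error 0.146, adjusted p = 6.16e-07). It was 1.25 with sgWDR77-1 (standard error 0.227, adjusted p = 0.013) and 0.99 with sgWDR77-2 (standard error 0.166, adjusted p = 0.00273). The rises rested partly on sgNeg replicate 2, the lowest of all libraries. Without it the sgPRMT5-1 value was 0.58 with an adjusted p of 0.0557, within 0.000646 to 0.0557 over 14 alternatives, and the sgWDR77-1 value was 1.06 with an adjusted p of 0.0944, within 4.72e-05 to 0.1. Without sgNeg replicate 3 the sgWDR77-1 value was 1.26 and its adjusted p was 0.1. Without replicate 1 of sgWDR77-1 it was 1.48 (adjusted p = 4.72e-05), without replicate 2 1.17 (0.0471) and without replicate 3 1.10 (0.0187). The rises with sgPRMT5-2 and sgWDR77-2 stayed past the threshold in 14 of 14 alternatives, and without sgNeg replicate 2 they were 1.14 and 0.81.

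KRT8 (ENSG00000170421.12) is the type II partner of KRT18, encoded on the minus strand (chr12:52897187-52949954; the reference transcript has 8 exons). Its level was 1215, 1063 and 1250 CPM in sgNeg, 1144, 1135 and 1338 CPM with sgPRMT5-1 and 1667, 1701 and 1682 CPM with sgPRMT5-2. Under sgWDR77-1 it was 811, 931 and 828 CPM, and with sgWDR77-2 it was 1381, 1080 and 1023 CPM. The sgPRMT5-2 libraries lay above all others and the sgWDR77-1 libraries below all others, while the remaining 3 conditions overlapped. The order of means was 1683 CPM ± 16.8 (SD, n = 3) with sgPRMT5-2, 1206 ± 114 with sgPRMT5-1, 1176 ± 99.7 in sgNeg, 1162 ± 193 with sgWDR77-2 and 856 ± 65.1 with sgWDR77-1. Among the middle 3, neighbouring means did not differ beyond their spread.

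In limma voom KRT8 rose with sgPRMT5-2 (log2 fold change 0.51, standard error 0.0632, adjusted p = 2.65e-06). Its value was 0.02 with sgPRMT5-1 (95% confidence interval −0.15 to 0.19, adjusted p = 0.925) and −0.03 with sgWDR77-2 (interval −0.25 to 0.18, adjusted p = 0.89). With sgWDR77-1 it was −0.43, with an interval of −0.67 to −0.18 and an adjusted p of 0.0707, so it did not pass. The call depended on the settings more than the value did. It passed without replicate 1 of sgWDR77-1 (−0.41, adjusted p = 0.0117), without the filter (−0.43, 0.0028) and in 1 fit over 15 libraries (−0.46, 0.00688), within 0.0028 to 0.344 over 14 alternatives.

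KRT80 (ENSG00000167767.14) is the widely expressed type II keratin, on the minus strand of the same chromosome (chr12:52168996-52192014, 9 exons). Its level was 144, 145 and 178 CPM in sgNeg, 186, 172 and 240 CPM with sgPRMT5-1 and 293, 265 and 260 CPM with sgPRMT5-2. With sgWDR77-1 it was 150, 185 and 211 CPM, and with sgWDR77-2 it was 239, 165 and 150 CPM. Only the sgPRMT5-2 libraries were separate from the rest, above all other 12. The means ran from 273 CPM ± 17.6 (SD, n = 3) with sgPRMT5-2 through 199 ± 35.4 with sgPRMT5-1, 185 ± 47.8 with sgWDR77-2 and 182 ± 30.6 with sgWDR77-1 to 156 ± 19.4 in sgNeg, and the ranges of the last 4 overlapped from each to the next.

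KRT80 rose with sgPRMT5-2 in limma voom (log2 fold change 0.81, standard error 0.0815, adjusted p = 2.28e-07). With the other sgRNAs it was above its sgNeg mean without passing. The value was 0.33 with sgPRMT5-1 (adjusted p = 0.125), 0.24 with sgWDR77-1 (adjusted p = 0.397) and 0.21 with sgWDR77-2 (adjusted p = 0.426). With sgPRMT5-1 it passed without the filter (0.33, adjusted p = 0.0146) and with the replicate number as a block (0.34, 0.00424), within 0.00424 to 0.383 over 14 alternatives. Without replicate 1 of sgWDR77-1 the sgWDR77-1 value was 0.36 with an adjusted p of 0.0501, within 0.0501 to 0.693 over 14 alternatives. Single libraries also lowered these values, to 0.18 with sgPRMT5-1 without its replicate 3, to 0.13 with sgWDR77-1 without its replicate 3 and to 0.02 with sgWDR77-2 without its replicate 1.

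KRT18 (ENSG00000111057.11) is the type I partner of KRT8, encoded on the plus strand (chr12:52948871-52952906, 7 exons). It lies beside KRT8, apart from the other type I genes, which sit on chromosome 17. Its level was 894, 752 and 869 CPM in sgNeg, 793, 810 and 922 CPM with sgPRMT5-1 and 1162, 1178 and 1227 CPM with sgPRMT5-2. The sgWDR77-1 libraries had 521, 631 and 588 CPM, and the sgWDR77-2 libraries 857, 749 and 703 CPM. As for KRT8, the sgPRMT5-2 libraries were the highest, the sgWDR77-1 libraries the lowest, and the other 3 conditions overlapped. The means were 1189 CPM ± 33.7 (SD, n = 3) with sgPRMT5-2, 842 ± 69.8 with sgPRMT5-1, 838 ± 75.9 in sgNeg, 769 ± 79.2 with sgWDR77-2 and 580.2 ± 55.2 with sgWDR77-1, and neighbouring means among the middle 3 did not differ beyond their spread.

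KRT18 rose with sgPRMT5-2 in limma voom (log2 fold change 0.50, standard error 0.0666, adjusted p = 6.51e-06). It fell with sgWDR77-1 (−0.50, standard error 0.117, adjusted p = 0.0424), a call close to the threshold that passed in 6 of 14 alternatives (adjusted p within 0.00109 to 0.247). It was lost with upper quartile scaling (adjusted p = 0.0505), with the replicate number as a block (−0.50, 0.0662) and with limma-trend (−0.50). The sgWDR77-1 call was also lost without sgNeg replicate 1 (−0.46, adjusted p = 0.199), replicate 2 (−0.58, 0.0869) or replicate 3 (−0.48, 0.247). It was lost without sgWDR77-1 replicate 2 (−0.56, adjusted p = 0.0961) or replicate 3 (−0.51, 0.0585) as well. Without its replicate 1 it was −0.44 with an adjusted p of 0.00691. KRT18 did not pass with sgPRMT5-1 (−0.01, adjusted p = 0.965) or sgWDR77-2 (−0.13, interval −0.32 to 0.06, adjusted p = 0.436). Leaving out 1 library at a time, the sgWDR77-2 value ranged from −0.20 to −0.05.

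KRT19 (ENSG00000171345.13), the smallest keratin, is a type I protein that lacks most of the tail domain. It is encoded on the minus strand of chromosome 17 (hg38, chr17:41523617-41528308, 6 exons). Its level was 566, 559 and 632 CPM in sgNeg, 448, 406 and 414 CPM with sgPRMT5-1 and 250, 240 and 244 CPM with sgPRMT5-2. The sgWDR77-1 libraries had 272, 284 and 294 CPM, and the sgWDR77-2 libraries 318, 317 and 361 CPM. The sgNeg libraries were the highest and no condition overlapped another. The order of means was 586 CPM ± 40.5 (SD, n = 3) in sgNeg, 422 ± 22.5 with sgPRMT5-1, 332 ± 25.4 with sgWDR77-2, 284 ± 10.9 with sgWDR77-1 and 244 ± 4.94 with sgPRMT5-2, and each gap exceeded the pooled spread of its neighbours.

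KRT19 fell with each of the 4 sgRNAs. In limma voom its log2 fold change was −0.48 with sgPRMT5-1 (standard error 0.0767, adjusted p = 0.00132) and −1.26 with sgPRMT5-2 (standard error 0.0665, adjusted p = 3.25e-11). It was −1.01 with sgWDR77-1 (standard error 0.108, adjusted p = 0.000459) and −0.83 with sgWDR77-2 (standard error 0.0825, adjusted p = 3.05e-05). Each of these falls stayed past the threshold in 14 of 14 alternatives. Without replicate 1 of sgWDR77-1 the value there was −1.002, and without sgNeg replicate 2 it was −1.05.

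**Figure D2:**
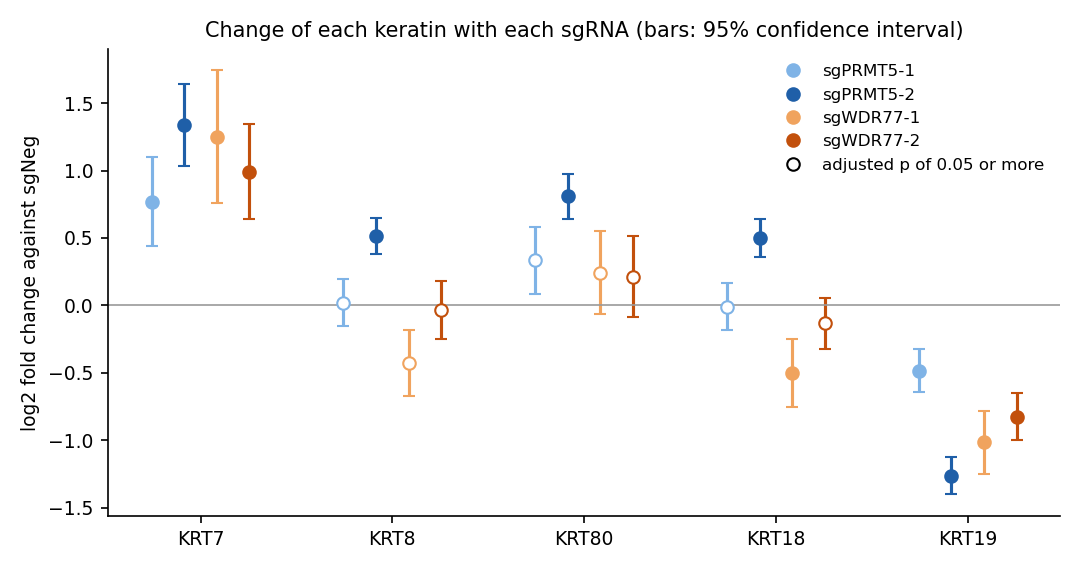
Log2 fold change of each keratin against sgNeg (vertical axis) for the 4 sgRNAs, with 95% confidence intervals; open points have an adjusted p of 0.05 or more. KRT7 is above 0 and KRT19 below 0 with every sgRNA, while all 5 keratins pass the test with sgPRMT5-2.

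Counted by sgRNA, the members called have to be read against all genes. With sgPRMT5-1, 1 keratin rose and 1 fell, where 1.52% of the genes tested rose and 2.24% fell. With sgPRMT5-2, 4 rose and 1 fell, where 20.9% of genes rose and 19.3% fell, so a call there is common among all genes. With sgWDR77-1, 1 rose and 2 fell, where 1.04% of genes rose and 1.67% fell. With sgWDR77-2, 1 rose and 1 fell, where 1.89% rose and 3.08% fell. The sgWDR77-1 count depended on single libraries, as did the share of all genes called, 2.71% with every library. Without its replicate 1, 4 of the 5 were called, where 7.01% of genes were. It was 1 of 5 without sgNeg replicate 2 (0.999% of genes) or replicate 3 (0.393%). The sgPRMT5-1 count was 1 without sgNeg replicate 2, where 2.66% of genes were called.

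The next question is whether the sgRNAs of a gene gave the same keratin levels, a comparison that uses no sgNeg library. Between sgPRMT5-2 and sgPRMT5-1 all 5 differed, with 4 higher and 1 lower, where 9.94% of genes were higher and 9.31% lower. In limma voom KRT7 was higher with sgPRMT5-2 by a log2 fold change of 0.56 (adjusted p = 0.00109), KRT8 by 0.49 (adjusted p = 1.17e-06) and KRT18 by 0.51 (adjusted p = 1.24e-06). KRT80 was higher by 0.47 (adjusted p = 0.000842) and KRT19 lower, at −0.78 (adjusted p = 9.33e-09). In 1 fit over 15 libraries KRT80 no longer passed (0.47, adjusted p = 0.057, within 3.45e-12 to 0.057 over 14 alternatives). For each of the 5, the 3 libraries of sgPRMT5-2 lay on 1 side of the 3 libraries of sgPRMT5-1. PRMT5 transcript did not pass in the same comparison (0.23, adjusted p = 0.146).

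Between sgWDR77-2 and sgWDR77-1, limma voom called 0 of the 5, where 0.0999% of genes were higher and 0.0214% lower. At an unadjusted p under 0.05 there were 2 keratins, KRT8 and KRT18, and 1758 genes in all. KRT8 stood at 0.42 (95% confidence interval 0.13 to 0.70, adjusted p = 0.259) and KRT18 at 0.39 (interval 0.13 to 0.66, adjusted p = 0.252), with 3 of 3 sgWDR77-2 libraries above each sgWDR77-1 library. KRT19 stood at 0.21 (interval −0.03 to 0.46), and its sgWDR77-2 libraries too lay above each sgWDR77-1 library. KRT7 stood at −0.24 (interval −0.66 to 0.19) and KRT80 at −0.01 (interval −0.38 to 0.37), with overlap. These intervals are wide enough to hide moderate differences. Without replicate 1 of sgWDR77-1 the 5 did not pass, with KRT7 at −0.49, KRT8 at 0.37 and KRT18 at 0.31. KRT8 passed without the filter (0.41, adjusted p = 0.0302) and in 1 fit over 15 libraries (0.43, 0.0304), within 0.0302 to 0.764 over 14 alternatives, and KRT18 passed in that fit (0.41, 0.0296), within 0.0296 to 0.742.

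The study names PRMT5KO and WDR77KO, and the sources used here do not state which libraries each held. Both sgRNAs of a gene were pooled here, with 6 libraries each. These fits count the libraries of 2 sgRNAs as replicates, although all 5 keratins differed between the PRMT5 sgRNAs. Their p-values therefore describe these libraries and do not carry over to other sgRNAs of a gene. In PRMT5KO 2 keratins rose and 1 fell, where 8.73% of genes rose and 8.3% fell. KRT7 rose (log2 fold change 1.05, limma voom adjusted p = 0.00719), as did KRT80 (0.57, adjusted p = 0.0243), and KRT19 fell (−0.88, adjusted p = 0.00882). KRT8 and KRT18 did not pass, at 0.27 (adjusted p = 0.176) and 0.24 (adjusted p = 0.225). Without sgNeg replicate 2, KRT7 was 0.86 with an adjusted p of 0.0556, within 0.000151 to 0.0556 over 17 alternatives, and 1 keratin was called, where 4.8% of genes were. KRT80 no longer passed without sgNeg replicate 1 (0.50, adjusted p = 0.124) or replicate 2 (0.52, adjusted p = 0.109), within 0.00294 to 0.124 over 17 alternatives.

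In WDR77KO 1 keratin rose and 1 fell, where 0.838% of genes rose and 2.55% fell. KRT7 rose (log2 fold change 1.11, limma voom adjusted p = 0.00565) and KRT19 fell (−0.93, adjusted p = 4.43e-05). KRT8 stood at −0.24 (adjusted p = 0.433), KRT80 at 0.22 (adjusted p = 0.509) and KRT18 at −0.33 (adjusted p = 0.216). Without sgNeg replicate 2, KRT7 was 0.93 with an adjusted p of 0.0538, within 0.000199 to 0.0538 over 17 alternatives, and without replicate 1 of sgWDR77-1 it was 1.20 with an adjusted p of 0.00158.

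Compared directly with the same pooling, KRT8 and KRT18 were higher in the PRMT5KO libraries than in the WDR77KO libraries and no keratin was called lower, where 7.99% of genes were higher and 6.01% lower. In limma voom KRT8 differed by 0.52 (adjusted p = 0.0166) and KRT18 by 0.58 (adjusted p = 0.00824), although the 6 libraries of each overlapped. The sgPRMT5-1 and sgWDR77-2 means were close, at 1206 and 1162 CPM for KRT8 and 842 and 769 CPM for KRT18, while sgPRMT5-2 was highest and sgWDR77-1 lowest. A difference between the knockouts is thus not separated from differences between sgRNAs. KRT8 no longer passed without sgPRMT5-2 replicate 1 (0.45, adjusted p = 0.0558), replicate 2 (0.45, 0.0552) or replicate 3 (0.45, 0.0543), within 2.17e-05 to 0.0558 over 20 alternatives. KRT80 stood at 0.36 (adjusted p = 0.0797) and passed without sgPRMT5-1 replicate 1 (0.42, adjusted p = 0.0425), sgPRMT5-1 replicate 2 (0.43, 0.03) or sgWDR77-2 replicate 1 (0.43, 0.027), within 0.0144 to 0.219. KRT7 and KRT19 stood at −0.05 (interval −0.37 to 0.27, adjusted p = 0.859) and 0.07 (interval −0.25 to 0.38, adjusted p = 0.792).

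Ratios of counts within a library need no scaling between libraries and show how partners kept step. The ratio of KRT8 to KRT18 reads stayed between 1.36 and 1.61 in all 15 libraries. Its mean log2 value was 0.49 ± 0.0421 (SD, n = 3) in sgNeg, 0.52 ± 0.0274 with sgPRMT5-1, 0.50 ± 0.0409 with sgPRMT5-2, 0.56 ± 0.0721 with sgWDR77-1 and 0.59 ± 0.0890 with sgWDR77-2. The sgWDR77-2 libraries did not overlap sgNeg, their lowest value being 0.53 against a highest of 0.52, and the means differed by 0.10 (exact two-sided permutation p = 0.1, the smallest possible). The ratio thus stayed within a narrow band, while the group means of KRT8 alone ran from 856 to 1683 CPM. Per kb of transcript KRT8 exceeded KRT18 by a mean ratio of 1.11 in sgNeg and 1.19 with sgWDR77-2.

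The ratio of KRT7 to KRT19, the members that moved in opposite directions, differed most from sgNeg. There were 0.0250 to 0.0404 KRT7 reads per KRT19 read in sgNeg, 0.0699 to 0.0783 with sgPRMT5-1 and 0.166 to 0.202 with sgPRMT5-2. With sgWDR77-1 there were 0.111 to 0.177, and with sgWDR77-2 0.0902 to 0.128. No targeting library overlapped the sgNeg range, and the mean log2 ratio differed from sgNeg by 1.26, 2.60, 2.27 and 1.82 in that order. Without sgNeg replicate 2 these were 1.10, 2.45, 2.12 and 1.67, and without replicate 1 of sgWDR77-1 the sgWDR77-1 difference was 2.48.

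Against KRT18, the other ratios also stood clear of sgNeg with each sgRNA. For KRT7 to KRT18 the log2 differences were 0.78 with sgPRMT5-1, 0.83 with sgPRMT5-2, 1.75 with sgWDR77-1 and 1.13 with sgWDR77-2. For KRT80 to KRT18 they were 0.34, 0.31, 0.74 and 0.35 in the same order, so this ratio lay above sgNeg also where neither gene passed its own test. For KRT19 to KRT18 they were −0.48, −1.77, −0.51 and −0.69. Without sgNeg replicate 2 the differences were 0.67, 0.73, 1.65 and 1.02 for KRT7, 0.37, 0.33, 0.77 and 0.37 for KRT80 and −0.43, −1.72, −0.47 and −0.65 for KRT19. Without replicate 1 of sgWDR77-1 they were 1.92, 0.80 and −0.56 there. The 5 ratios were compared in 40 exact two-sided permutation tests. With 3 libraries against 3 the smallest possible p is 0.1 and with 6 against 3 it is 0.0238. The smallest p adjusted over the 40 tests was 0.119, and these sizes allow none below 0.0952, so the ratios stand as descriptions.

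**Figure D3:**
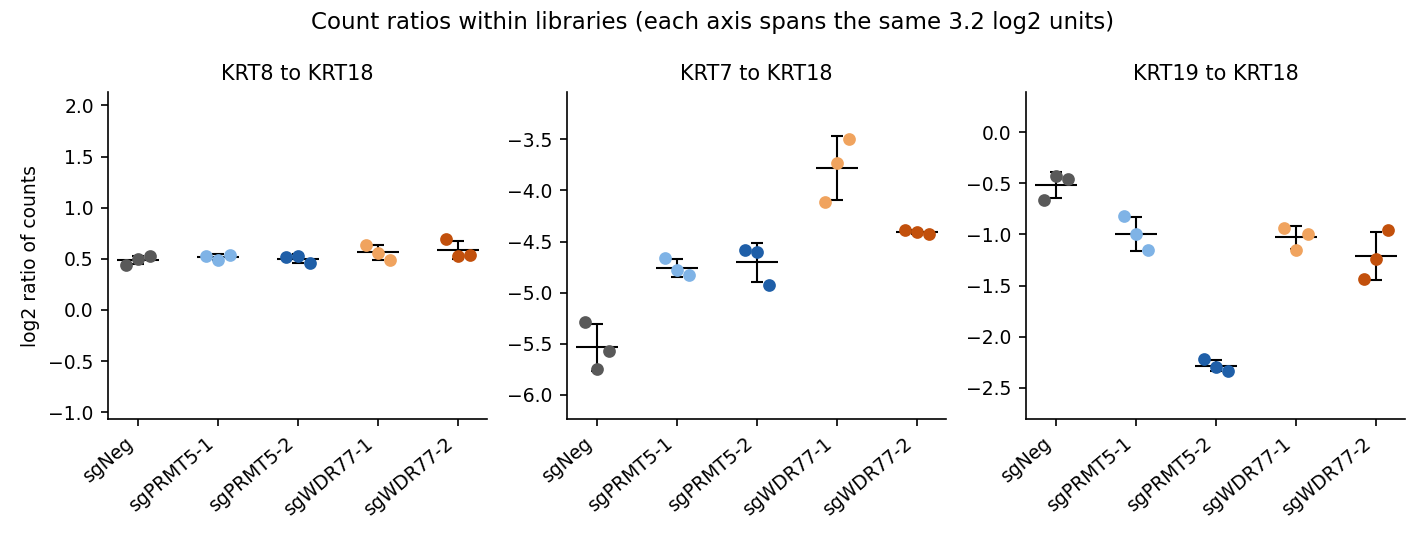
Log2 ratio of reads within each library (vertical axes of equal span) for KRT8, KRT7 and KRT19, each to KRT18, by condition; points are libraries and black marks the mean ± SD of 3. KRT8 to KRT18 stays near 0.5, whereas KRT7 to KRT18 is higher and KRT19 to KRT18 lower with each targeting sgRNA than in sgNeg.

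Among the 5 alone, type II transcript was higher relative to type I with each sgRNA. This share leaves out the other abundant keratins, among them KRT17, KRT5 and KRT15. KRT5, type II, and KRT15, type I, both fell with every sgRNA, and the balance over all keratins was not computed. As a share of their summed CPM per kb, type II transcripts made up 40.7% to 41.5% in sgNeg, 44.5% to 46.7% with sgPRMT5-1 and 49.8% to 51.1% with sgPRMT5-2. With sgWDR77-1 the share was 46.7% to 47.9%, and with sgWDR77-2 it was 45.5% to 50.8%. No targeting library fell within the sgNeg range. KRT19's own share was 24.5% ± 1.32 (SD, n = 3) in sgNeg and 8.54% ± 0.223 with sgPRMT5-2, with 18.5% ± 1.77, 17.5% ± 0.996 and 16.1% ± 2.62 for sgPRMT5-1, sgWDR77-1 and sgWDR77-2. KRT7's share stayed small, at 0.652% ± 0.128 in sgNeg and 2.26% ± 0.503 with sgWDR77-1, its highest.

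The summed level of the 5 differed between sgRNAs. It was 1725 CPM per kb ± 133 (SD, n = 3) in sgNeg, 1646 ± 118 with sgPRMT5-1, 2059.5 ± 18.1 with sgPRMT5-2, 1168 ± 87.1 with sgWDR77-1 and 1504 ± 167 with sgWDR77-2. The sgPRMT5-2 libraries lay above and the sgWDR77-1 libraries below the sgNeg range. Among all keratins per kb, the 5 made up 66.5% to 72.5% with sgPRMT5-1, 79.0% to 80.3% with sgPRMT5-2, 64.6% to 68.0% with sgWDR77-1 and 56.6% to 62.2% with sgWDR77-2. The sgPRMT5-2 share was thus the highest, above 62.0% to 66.3% in sgNeg, and the sgWDR77-2 share the lowest by its mean, overlapping sgNeg.

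**Figure D4:**
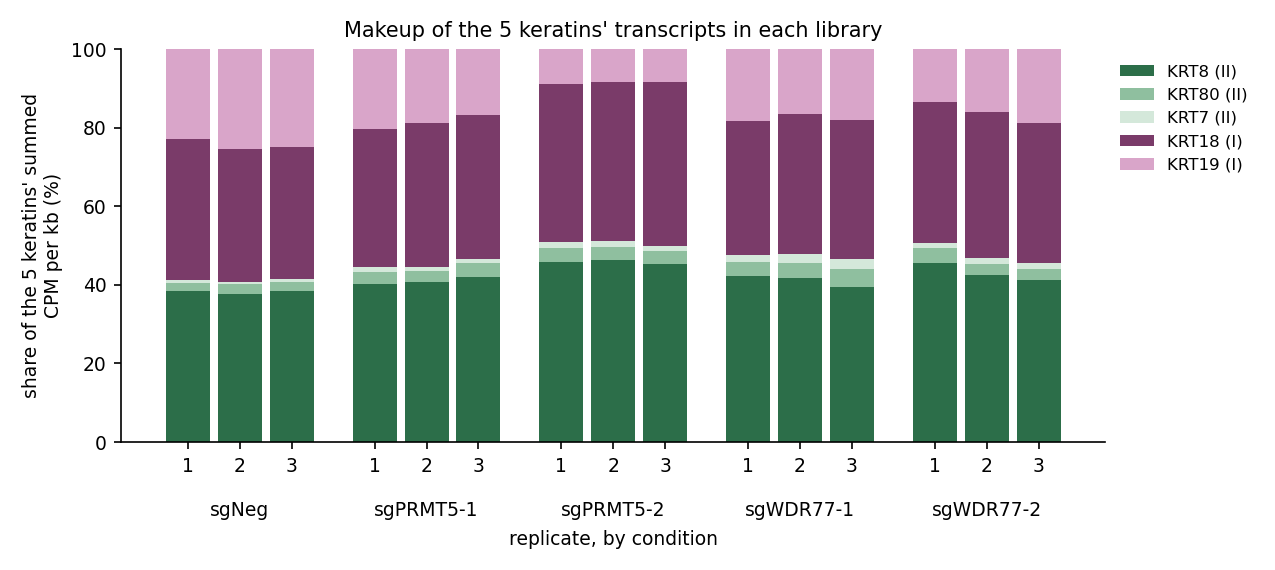
Share of each keratin in the summed CPM per kb of the 5 (vertical axis, %) in each library (bars, grouped by condition); green shades are type II and purple shades type I. The KRT19 segment spans 23.0% to 25.5% in sgNeg and 8.38% to 8.80% with sgPRMT5-2.

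Among 9221 genes compared over the 15 libraries, KRT8 and KRT18 were each other's nearest pattern. Likeness was measured as the root mean square (RMS) difference of mean-centred log2 CPM, a smaller value being more alike. It was 0.0608 between them, where KRT8 itself varied by 0.33 and KRT18 by 0.347 about their means. Next nearest to KRT8 were EIF3B (0.0981) and IMP4 (0.104), and to KRT18 SMG5 (0.117) and SLC20A1 (0.119). KRT80 lay nearest to PYGB (0.116), POLR3C (0.119) and RRP1 (0.12). KRT19 lay nearest to CTSH (0.121), CTSD (0.173) and C1QTNF6 (0.177). KRT7 had no equally close match, with CYSTM1 at 0.247, PDE10A at 0.257 and SAMD4A at 0.277, and KRT19 came 9090th in its order.

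The genes around the members were not all called where the members were. KRT7 and KRT80 are neighbours 40505 bases apart. KRT7 rose with all 4 sgRNAs and KRT80 rose with sgPRMT5-2. KRT80 was also above sgNeg with sgPRMT5-1 (0.33), sgWDR77-1 (0.24) and sgWDR77-2 (0.21), without passing. A difference between these genes was not tested. On the other side of KRT7, at 33726 bases, KRT81 had 5 to 28 reads and rose with sgPRMT5-2 (log2 fold change 1.44, limma voom adjusted p = 0.005). KRT15, 1087 bases from KRT19, is a type I keratin of basal squamous cells. It averaged 166 CPM ± 45.3 (SD, n = 3) in sgNeg, 19.6 ± 5.55 with sgPRMT5-1, 8.61 ± 3.69 with sgPRMT5-2, 64.7 ± 14.3 with sgWDR77-1 and 59.2 ± 17.5 with sgWDR77-2. It fell with every sgRNA, at −3.07 (limma voom adjusted p = 2.1e-07) and −4.34 (1.75e-09) for PRMT5 and −1.31 (0.00669) and −1.49 (0.000473) for WDR77, the first of which was lost without sgNeg replicate 3 (−1.20). KRT9, KRT78 and SMIM41 had at most 4 reads in a library. EIF4B, beyond KRT18, was abundant and did not pass with any sgRNA, its log2 fold changes running from −0.24 to −0.02, although without the filter it passed with sgWDR77-2 (−0.24).

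Some reads could belong to more than 1 gene. The annotated KRT8 and KRT18 genes run on opposite strands and share 525 exonic bases, so reads there can be assigned only with strand information, and the sources used here do not state that setting. Between 7.09% and 7.93% of reads in a library were set aside by the authors as ambiguous. KRT7 shares 282 exonic bases with KRT7-AS, which had 0 to 12 reads, 32 with KRT87P and 0 with KRT86. With sgWDR77-1 these had higher means than in sgNeg, at 1.48 against 0.332 CPM for KRT7-AS, 3.07 against 1.14 CPM for KRT87P and 3.62 against 2.52 CPM for KRT86. None passed in limma voom (log2 fold change 2.24, 1.40 and 0.49; adjusted p = 0.169, 0.0908 and 0.515), but KRT87P did in 1 fit over 15 libraries (1.37) and without sgWDR77-1 replicate 1 (1.4975). The KRT7-AS mean was also above sgNeg with sgPRMT5-1 (0.499 CPM), sgPRMT5-2 (0.882 CPM) and sgWDR77-2 (0.668 CPM). With those sgRNAs the KRT87P and KRT86 means lay on both sides of sgNeg. What these overlaps add to the KRT7 counts was not tested.

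KRT80 overlaps LINC00592 with 0 shared exonic bases. LINC00592, with 1 to 13 reads, averaged 0.338 CPM in sgNeg. Its mean was 1.29 CPM with sgPRMT5-1 and 1.45 CPM with sgPRMT5-2, then 1.78 CPM with sgWDR77-1 and 1.27 CPM with sgWDR77-2, each library with a targeting sgRNA lying above sgNeg. In that order the log2 fold changes were 1.65, 1.78, 2.17 and 1.52 (limma voom adjusted p = 0.167, 0.0333, 0.0881 and 0.227), so only that with sgPRMT5-2 passed. That call was lost in 1 fit over 15 libraries (1.79), without sgNeg replicate 1 (1.81) or 3 (1.504) and without sgPRMT5-2 replicate 2 (1.70) or 3 (1.52), and the fit over 15 libraries called it with sgWDR77-1 (2.14) instead.

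Pseudogenes are another place where reads could be shared. Reads that aligned to more than 1 place, 9.49% to 13.1% in a library, were set aside by the authors. The shares below hold only reads assigned to 1 gene, so they cannot show how many reads were shared. KRT8 has 51 listed pseudogenes, whose reads came to 0.957% to 1.59% of its own, and KRT18 has 68, at 0.223% to 0.607%. The 5 pseudogenes of KRT19 together had at most 1 read in a library. With each sgRNA 5 keratin pseudogenes could be tested against sgNeg, not the same 5 throughout. Of these, limma voom called KRT8P12, which rose with sgPRMT5-2 (0.90, adjusted p = 0.00672), where 20.9% of all genes rose and 19.3% fell.

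Keratins of squamous epithelia that passed the test were mostly lower. Of the 22 on the list, 8 could be tested with sgPRMT5-1, and 0 rose and 4 fell, with a median log2 fold change of −0.83 against 0.00 for all genes. With sgPRMT5-2, 7 were tested, 0 rose and 4 fell, with a median of −3.53 against 0.00. With sgWDR77-1 it was 0 and 4 of 7, with a median of −1.31 against 0.02, and with sgWDR77-2 1 and 4 of 8, with a median of −0.90 against 0.01. Over all genes tested, 1.52%, 20.9%, 1.04% and 1.89% rose and 2.24%, 19.3%, 1.67% and 3.08% fell in that order. KRT5, the basal type II keratin, fell by limma voom with all 4 sgRNAs, at −1.28 (adjusted p = 4.33e-05), −3.53 (4.69e-13), −3.99 (1.82e-07) and −2.83 (1.78e-08) in the same order. KRT13, the type I keratin of internal stratified epithelia, was at −5.03, −5.12, −2.73 and −2.19 and KRT6A at −1.64, −3.66, −3.68 and −2.15, each passing. KRT17 rose with sgWDR77-2 (0.82, adjusted p = 1.23e-05), from 807 CPM ± 72.1 (SD, n = 3) in sgNeg to 1431 ± 18.996, and without sgNeg replicate 2 it was also called lower with sgPRMT5-2 (−0.21).

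Genes that anchor or bind keratin filaments passed in both directions. Of 29 listed, 1 rose and 2 fell among 27 tested with sgPRMT5-1 (median 0.03), 9 rose and 7 fell of 27 with sgPRMT5-2 (median 0.00), 0 rose and 3 fell of 27 with sgWDR77-1 (median 0.06), and 2 rose and 1 fell of 28 with sgWDR77-2 (median −0.01). Of all genes, 1.52%, 20.9%, 1.04% and 1.89% rose and 2.24%, 19.3%, 1.67% and 3.08% fell in that order. The count of 3 with sgPRMT5-1 was 7 without the filter and 6 with the replicate block, where 3.81% and 10.1% of all genes were called. The count of 3 with sgWDR77-2 was 5 and 1, where 3.03% and 2.63% were. DSG3, a desmosomal cadherin of squamous cells, fell with every sgRNA, at −0.51, −0.88, −0.96 and −0.67 (limma voom adjusted p = 0.0246, 2.35e-06, 0.00423 and 0.00499). PKP1, a desmosomal plaque protein, fell with sgPRMT5-1 (−1.95, adjusted p = 0.00377), sgPRMT5-2 (−2.73, 5.39e-05) and sgWDR77-1 (−1.65, 0.0375), and PKP3 with sgWDR77-1 (−0.62, 0.0457). SFN, an adaptor that binds phosphorylated keratins, rose with sgPRMT5-1 (0.37, adjusted p = 0.0205), sgPRMT5-2 (0.44, 5.31e-05) and sgWDR77-2 (0.33, 0.0404). With sgPRMT5-2 the keratin-associated gene PNN rose (0.56, adjusted p = 1.67e-05) and TRIM29 fell (−0.62, 6.65e-06). DST, a linker of filaments to hemidesmosomes, rose with sgPRMT5-2 (0.42, adjusted p = 8.71e-05) and sgWDR77-2 (0.43, 0.016). Without sgNeg replicate 2 the calls of SFN (0.29) and DSG3 (−0.48) with sgPRMT5-1, PKP3 with sgWDR77-1 (−0.68) and SFN with sgWDR77-2 (0.25) were lost. DST with sgPRMT5-1 (0.33) and PKP1 with sgWDR77-2 (−1.10) were gained, as was DST with sgWDR77-1 (0.39) without its replicate 1. Other single libraries undid the 4 lost calls too. Over all fits without 1 library, SFN with sgWDR77-2 was lost in 5 of 6 and PKP3 with sgWDR77-1 in 4 of 6. The calls of PKP1 with sgWDR77-1 and DST with sgWDR77-2 were also undone by single libraries other than sgNeg replicate 2. VIM, the mesenchymal filament gene, had at most 6 reads in a library.

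Other genes typical of simple epithelia also passed in both directions. Of 31 listed, 0 rose and 4 fell among 27 tested with sgPRMT5-1 (median −0.03), 6 rose and 13 fell of 27 with sgPRMT5-2 (median −0.25), 4 rose and 2 fell of 28 with sgWDR77-1 (median 0.01), and 1 rose and 2 fell of 27 with sgWDR77-2 (median −0.07). For comparison, 1.52%, 20.9%, 1.04% and 1.89% of all genes rose and 2.24%, 19.3%, 1.67% and 3.08% fell. The count of 4 with sgPRMT5-1 was 7 without the filter and 9 with the replicate block, where 3.81% and 10.1% of all genes were called. CD24, a surface glycoprotein, fell with every sgRNA, at −2.97, −3.07, −1.04 and −1.12 (limma voom adjusted p = 4.87e-05, 1.65e-07, 0.0253 and 0.00482). The mucin MUC1 fell with sgPRMT5-1 (−1.12, adjusted p = 0.00546) and sgPRMT5-2 (−1.94, 3.76e-07), and AGR2, which folds mucins, with sgPRMT5-1 (−3.92, 0.0131) and sgPRMT5-2 (−2.96, 0.000805). The secreted WFDC2 fell with sgPRMT5-2 (−1.72, adjusted p = 0.000126), sgWDR77-1 (−2.16, 0.0163) and sgWDR77-2 (−2.19, 0.00229). LCN2, which binds siderophores, fell with sgPRMT5-2 (−1.17, adjusted p = 6.22e-06) and rose with sgWDR77-1 (1.15, 0.0173). CDH1, the epithelial cadherin, rose with sgPRMT5-2 (0.34, adjusted p = 0.00029), sgWDR77-1 (0.46, 0.0451) and sgWDR77-2 (0.35, 0.0144), and the tight junction gene CLDN1 rose with sgWDR77-1 (1.00, 0.00619). Leaving out sgNeg replicate 2 took the sgWDR77-1 count from 6 to 3 and the share of all genes called there from 2.71% to 0.999%. The calls of LCN2 (1.07), WFDC2 (−2.14) and CDH1 (0.41) were among those lost there, and that of CDH1 with sgWDR77-2 (0.31) was lost as well. AGR2 was then called with sgWDR77-1 (−2.16) and sgWDR77-2 (−2.24). Other single libraries undid the calls of AGR2 with sgPRMT5-1 and of CD24, CLDN1, LCN2, WFDC2 and CDH1 with sgWDR77-1. Over all fits without 1 library, the sgWDR77-1 call of CDH1 was lost in 5 of 6.

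Of 30 transcription factors linked to simple epithelia, 26 could be tested with each sgRNA. With sgPRMT5-1, 2 rose and 5 fell (median −0.01), with sgPRMT5-2 7 rose and 8 fell (median −0.02), with sgWDR77-1 1 rose and 0 fell (median 0.03), and with sgWDR77-2 2 rose and 2 fell (median 0.10). The shares over all genes were 1.52%, 20.9%, 1.04% and 1.89% for rises and 2.24%, 19.3%, 1.67% and 3.08% for falls. In 1 fit over 15 libraries the count of 7 with sgPRMT5-1 was 3 and the count of 1 with sgWDR77-1 was 4, where 2.97% and 9.35% of all genes were called. KLF6 rose in limma voom with sgPRMT5-1 (0.39, adjusted p = 0.0461), sgPRMT5-2 (1.85, 2.29e-12) and sgWDR77-2 (1.13, 3.78e-05). FOSL1, an AP-1 subunit, rose with sgPRMT5-1 (0.49, adjusted p = 0.042) and sgPRMT5-2 (1.68, 6.7e-11). The ETS factor ELF3 fell with sgPRMT5-1 (−0.37, adjusted p = 0.0155) and sgPRMT5-2 (−1.22, 2.7e-10). TFAP2C fell with sgPRMT5-1 (−0.53, adjusted p = 0.0154), sgPRMT5-2 (−0.84, 1.5e-05) and sgWDR77-2 (−0.54, 0.0154), while TFAP2A rose with sgPRMT5-2 (0.30, 0.0048) and sgWDR77-1 (0.69, 0.0271). HES1, a Notch target, fell with sgPRMT5-1 (−0.55, adjusted p = 0.0146) and sgPRMT5-2 (−0.44, 0.00131). KLF5 fell with sgPRMT5-1 (−0.40, adjusted p = 0.0461), sgPRMT5-2 (−0.73, 3.68e-06) and sgWDR77-2 (−0.70, 0.00125). JUN rose with sgPRMT5-2 (0.16, adjusted p = 0.039) and sgWDR77-2 (0.45, 0.011).

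Many of these calls of transcription factors were close to the threshold. Without sgNeg replicate 2 those of KLF6 (0.40) and KLF5 (−0.45) with sgPRMT5-1 and TFAP2A with sgWDR77-1 (0.68) were lost. These 3 did not hang on that library alone. Over all fits without 1 library, KLF5 was lost in 6 of 6, KLF6 in 5 of 6 and TFAP2A in 3 of 6. Without replicate 1 of sgWDR77-1, 5 were called there instead of 1, where 7.01% of all genes were, among them TFAP2C (−0.46), KLF5 (−0.49) and JUN (0.41). Other single libraries undid the calls of HES1, TFAP2C, ELF3 and FOSL1 with sgPRMT5-1, JUN with sgPRMT5-2, and TFAP2C and JUN with sgWDR77-2.

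The marker lists also hold genes that changed. Of the 8 squamous markers, 1 rose and 3 fell of 8 tested with sgPRMT5-1, 1 rose and 4 fell of 7 with sgPRMT5-2, 0 rose and 3 fell of 7 with sgWDR77-1, and 2 rose and 3 fell of 8 with sgWDR77-2. Rises made up 1.52%, 20.9%, 1.04% and 1.89% of all genes tested and falls 2.24%, 19.3%, 1.67% and 3.08%. The 4 called with sgPRMT5-1 became 2 without sgNeg replicate 2, where 2.66% of all genes were called. With sgPRMT5-2, limma voom also called COL1A1 (log2 fold change −0.66, adjusted p = 0.0142), VWF (−2.29, 0.00271), PMEL (−1.42, 0.00919), UPK3B (−2.37, 0.000456) and WT1 (0.48, 0.0426) among the markers of other lineages, all of them scarce, in the comparison where 20.9% of genes rose and 19.3% fell. The call of WT1 was lost in 4 of 6 fits without 1 library, among them the fit without sgNeg replicate 2 (0.42), where CDH5 was called (−0.42). Those of COL1A1 and PMEL were lost without another single library. No leukocyte marker could be tested, and with sgPRMT5-1 and sgWDR77-2 limma voom called 0 markers of other lineages.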

How the data were processed

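The deposited values are read counts per gene, which the authors made with HTSeq after STAR alignment of single-end reads (hg38). Their methods name an unstranded TruSeq kit, whereas the labels name a stranded TruSeq protocol. From these counts, library sizes were scaled by TMM (trims 0.3 and 0.05) and each comparison was fitted on its own libraries with limma 3.58.1 (voom, R 4.3.3), testing genes with a mean normalized count of at least 3. Benjamini-Hochberg adjustment ran over all genes tested. Ratios used exact permutation (scipy 1.17.1). Lengths are those of MANE transcripts.

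The members and the lists (squamous keratins, other simple keratins, filament partners, lineage genes, transcription factors, pseudogenes, cell type markers) were chosen with earlier results of these data known. Named are the 5 keratins, PRMT5, WDR77, neighbours and overlapping genes, the 3 nearest patterns of each keratin among genes with a mean count of at least 50, and in each list up to 3 genes with the smallest adjusted p for each sgRNA. Values of a named gene with other sgRNAs, and KRT14 and VIM, were added after they were seen. HTSeq's 5 summary entries were left out of library sizes. Replicate numbers were not used as pairs.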

Additional observations from a re-analysis of the deposited data

Results flagged for a closer look

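The effects of the sgRNAs that target PRMT5 differed for all 5 keratins, as tested directly by limma voom between sgPRMT5-2 and sgPRMT5-1. The log2 differences were 0.56 for KRT7, 0.49 for KRT8, 0.47 for KRT80, 0.51 for KRT18 and −0.78 for KRT19. In 1 fit over all 15 libraries the KRT80 difference no longer passed (0.47, adjusted p = 0.057, within 3.45e-12 to 0.057 over 14 alternatives). In that comparison 9.94% of all genes were higher and 9.31% lower.

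With both sgRNAs of a gene pooled, limma voom gave higher KRT8 and KRT18 in the PRMT5KO libraries than in the WDR77KO libraries, by 0.52 for KRT8 and 0.58 for KRT18, where 7.99% of all genes were higher and 6.01% lower. KRT8 no longer passed without sgPRMT5-2 replicate 1 (0.45, adjusted p = 0.0558), replicate 2 (0.45, 0.0552) or replicate 3 (0.45, 0.0543), within 2.17e-05 to 0.0558 over 20 alternatives. The 3 sgPRMT5-2 libraries were the highest and the 3 sgWDR77-1 libraries the lowest for both genes, whereas sgPRMT5-1 and sgWDR77-2 overlapped. The fit counts libraries of 2 sgRNAs as 6 replicates, so a difference between the knockouts is not separated from differences between sgRNAs.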

How the results depend on the processing

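Across 9 comparisons the 5 keratins were tested again under other scalings, filters and fits, and without each library in turn. No value that passed the test changed direction. KRT19 stayed past the adjusted p threshold in every alternative of the 6 comparisons with sgNeg. Planned tests by edgeR and DESeq2 were not run, because the format check read these headerless, tab-separated tables as comma-separated and did not accept their count column, although the values are counts. Adding 0.5 to each count or adding pseudogene counts moved no ratio by more than its spread between replicates. Among the other named genes, values without 1 library lost the call in 85 cases and gained it in 18, against 975 that did neither. The causes of the changes below were not tested.

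Without a filter on low counts, 3 values passed that had not: KRT80 with sgPRMT5-1 at 0.33 (adjusted p = 0.0146; range over alternatives 0.00424 to 0.383), KRT8 with sgWDR77-1 at −0.43 (0.0028; 0.0028 to 0.344) and KRT8 between the WDR77 sgRNAs at 0.41 (0.0302; 0.0302 to 0.764). In 1 fit over all 15 libraries, KRT8 passed with sgWDR77-1 (−0.46, adjusted p = 0.00688) and between the WDR77 sgRNAs (0.43, 0.0304), as did KRT18 there (0.41, 0.0296; 0.0296 to 0.742). In PRMT5KO, KRT8 passed at 0.28 (0.0256; 0.0256 to 0.46) and KRT18 at 0.26 (0.0271; 0.0271 to 0.539). KRT18 in WDR77KO passed at −0.33 (0.0141; 0.0141 to 0.53) and KRT80 between the knockouts at 0.36 (0.0144; 0.0144 to 0.219). KRT80 between the PRMT5 sgRNAs no longer passed, at 0.47 (0.057; 3.45e-12 to 0.057).

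KRT18 with sgWDR77-1 no longer passed with upper quartile scaling (−0.48, adjusted p = 0.0505) or limma-trend (−0.50, 0.056; 0.00109 to 0.247). With the replicate number as a block, it no longer passed (−0.50, adjusted p = 0.0662), whereas KRT80 with sgPRMT5-1 did (0.34, 0.00424). Replicate numbers carried no clear pairing in most comparisons, with correlations of same-numbered libraries from −0.25 to 0.27. With sgPRMT5-1 against sgNeg, 2 of 3 pairs exceeded 0.1 (0.11 and 0.27), and there the block called 10.1% of genes instead of 3.76%. For sgWDR77-1 against sgNeg 1 of 3 pairs did, and in the other comparisons checked 0 of 3.

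Leaving out 1 library at a time, KRT7 ranged from 0.58 to 0.93 with sgPRMT5-1, 1.06 to 1.48 with sgWDR77-1, 0.86 to 1.21 in PRMT5KO and, in WDR77KO, 0.93 to 1.28. With sgWDR77-1, KRT8 ranged from −0.50 to −0.39 and KRT18 from −0.58 to −0.44. KRT80 ranged from 0.50 to 0.64 in PRMT5KO. Between the knockouts KRT8 ranged from 0.45 to 0.60 and KRT80 from 0.28 to 0.43. Keratins called numbered 1 to 2 with sgPRMT5-1, where 1.49% to 3.6% of all genes were called, and 1 to 4 with sgWDR77-1 (0.393% to 7.01%). They numbered 1 to 3 in PRMT5KO (3.43% to 25.3% of all genes) and between the knockouts (6.26% to 22.6%). In WDR77KO they numbered 1 to 2 (1.41% to 4.79%).

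Adding a log2 fold change of at least 1 to the call left 0 of 2 keratins with sgPRMT5-1, 2 of 5 with sgPRMT5-2, 0 of 2 with sgWDR77-2, 0 of 5 between the PRMT5 sgRNAs, 1 of 3 in PRMT5KO, 1 of 2 in WDR77KO and 0 of 2 between the knockouts. In that order, 180 of 14102, 1248 of 14184, 192 of 14038, 386 of 13976, 529 of 14071, 208 of 14073 and 384 of 14015 genes tested were then called. Between the WDR77 sgRNAs, limma voom called 0 keratins (2 at an unadjusted p under 0.05), where 0.121% of all genes were called. Without the filter 1 was called (0.488% of all genes) and in the fit over 15 libraries 2 (2.42%). In PRMT5KO 5 were called in that fit instead of 3, where 22.9% of all genes were called instead of 17%.

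Counts over all genes moved more. With sgPRMT5-1, 530 genes were called, against 987 without the filter, 1427 with the replicate block, 180 with the fold threshold and 211 to 510 without 1 library. With sgPRMT5-2, 5693 fell to 1248 with the fold threshold. With sgWDR77-1, 385 became 1333 in the fit over 15 libraries, 159 with the fold threshold and 56 to 1003 without 1 library. With sgWDR77-2, 698 became 369 with the block, 192 with the fold threshold and 293 to 661 without 1 library. Between the PRMT5 sgRNAs, 2690 became 1078 in the fit over 15 libraries, 386 with the fold threshold and 1429 to 4711 without 1 library. Between the WDR77 sgRNAs, 17 became 11 with library totals alone, 127 without the filter, 342 in the fit over 15 libraries and 0 to 156 without 1 library. In PRMT5KO, 2397 became 529 with the fold threshold and 483 to 3562 without 1 library. In WDR77KO, 477 became 1193 in the fit over 15 libraries, 208 with the fold threshold and 199 to 677 without 1 library. Between the knockouts, 1962 became 3804 in the fit over 15 libraries, 384 with the fold threshold and 876 to 3178 without 1 library.

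With 3 libraries a condition, and 85 to 312 reads for KRT7, small changes would be missed, and 3 sgNeg libraries serve all comparisons with control.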
